A study of Mus musculus with 13 samples.

Results

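The genes described here are the nuclear-encoded subunits of the mitochondrial respiratory chain and ATP synthase in the mouse brain, taken by complex. They are the protein-coding genes whose symbols begin with Ndufa, Ndufb, Ndufc, Ndufs or Ndufv (complex I, assembly factors left out), Sdha to Sdhd (complex II), Uqcr (complex III), Cox4i to Cox8 (complex IV) and Atp5 (complex V, Atp5s left out), and their mean level over the 13 libraries had to reach 1 FPKM. FPKM is the number of fragments per kilobase of gene, scaled to the mapped fragments of the library. The names gave 83 of the 37636 genes in the table, and 81 passed the minimum: 38 of complex I, 4 of complex II, 8 of complex III, 15 of complex IV and 16 of complex V. Cox6b2, at 0.814 FPKM, and Cox7b2, at 0.0956 FPKM, fell under the minimum and were not tested. Cox7a1 and Cox8b, each at 1.32 FPKM, lay just above it, and both passed only through their level in Con: without the Con libraries their means were 0.914 and 0.822 FPKM. Their differences from Con are therefore given as descriptions, although the calls stay in the counts over all subunits.

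RNA was sequenced from the brain of male Balb/c mice aged 6 to 8 weeks, in 13 libraries. The 6-OHG group (4 libraries) was exposed to an altitude of 8000 m for 24 h and given 6-OHG, a compound known here only by its code name and with no dose in the labels. The Mod group (5 libraries) had the same exposure without 6-OHG, and the Con group (4 libraries) was kept at normal condition without 6-OHG. No group received 6-OHG without exposure. The labels name no brain region and do not say whether each library is a separate animal or when 6-OHG was given.

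The respiratory chain passes electrons from NADH through complex I, and from succinate through complex II, to coenzyme Q. Complex III then passes them to cytochrome c and complex IV passes them to oxygen; complexes I, III and IV pump protons, and complex V uses the proton gradient to make ATP. Neurons depend heavily on this supply, and several subunits have alternative isoforms that are known to replace one another under low oxygen or in muscle.

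Summed over all genes, the libraries held between 268208 and 312908 FPKM. Mitochondrially encoded transcripts took 23.0 to 25.6% of this in 6-OHG libraries, 22.8 to 28.7% in Mod libraries and 20.6 to 26.5% in Con libraries. Read depth is unknown, so no counting error could be given. No brain cell marker was at 0 in a whole group. The 10 neuron markers summed to 904 to 1026 FPKM in 6-OHG libraries, 875 to 930 FPKM in Mod libraries and 972 to 1054 FPKM in Con libraries. Of them, limma called 1 higher and 0 lower in 6-OHG against Mod (also 1 and 0 at an unadjusted p under 0.05; 1 lower without 6-OHG replicate 2). The 7 oligodendrocyte markers summed to 670 to 1232 FPKM in 6-OHG, 828 to 1945 FPKM in Mod and 1199 to 1613 FPKM in Con. Their median differences in 6-OHG were -0.33 from Mod and -0.47 from Con. Of the 7, limma called 0 lower against Mod and 1 against Con (up to 3 and 4 with single libraries left out). The 7 endothelial markers summed to 47.7 to 63.3 FPKM in 6-OHG, 57.1 to 66.0 FPKM in Mod and 30.6 to 40.0 FPKM in Con, and 5 of 7 were called higher in 6-OHG against Con. The 6 oligodendrocyte precursor markers summed to 34.1 to 58.9 FPKM in 6-OHG, 46.7 to 72.6 FPKM in Mod and 83.5 to 99.6 FPKM in Con, with 5 of 6 called lower in 6-OHG against Con and median differences of -0.31 from Mod and -0.86 from Con. The 7 microglia markers summed to 61.1 to 89.2 FPKM in 6-OHG, 75.6 to 89.2 FPKM in Mod and 93.3 to 106 FPKM in Con, with 0 lower against Mod (limma, 1 at an unadjusted p under 0.05) and 5 against Con (3 without Con replicate 1 or 2 or 6-OHG replicate 1 or 2, or with equal sums). The 5 blood markers summed to 40.9 to 176 FPKM in 6-OHG, 109 to 520 FPKM in Mod and 108 to 357 FPKM in Con, with median differences of -1.30 from Mod and -1.35 from Con in 6-OHG. The 6 choroid plexus and ependyma markers summed to 4.73 to 358 FPKM in 6-OHG and 46.5 to 251 FPKM in Mod. In Con they summed to 281 to 694 FPKM. Of the 3 tested, 1 was called lower in 6-OHG against Mod (0 to 2 with single libraries left out) and 2 against Con. Their median differences were -0.52 and -0.58. Over all genes tested, 8.35% were called lower and 6.98% higher in 6-OHG against Mod, and 14.4% and 16.3% against Con. The part of these cell types in the results below was not tested. In whole tissue, fewer cells of a type and less RNA per cell cannot be told apart.

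Summed by complex as deposited, subunit transcripts were lower in 6-OHG brains than in Mod and Con brains for complexes I, III, IV and V. Complex I subunits summed to 998 to 1104 FPKM in the 4 6-OHG libraries, 1264 to 1391 FPKM in the 5 Mod libraries and 1187 to 1368 FPKM in the 4 Con libraries. Complex III subunits summed to 333 to 371 FPKM in 6-OHG, 394 to 440 FPKM in Mod and 395 to 460 FPKM in Con. Complex IV subunits summed to 952 to 1012 FPKM in 6-OHG, 1171 to 1276 FPKM in Mod and 1117 to 1277 FPKM in Con. For these 3 complexes every 6-OHG library lay below every Mod and every Con library. Complex V subunits summed to 787 to 924 FPKM in 6-OHG, 939 to 979 FPKM in Mod and 958 to 1073 FPKM in Con, again without overlap. The 4 subunits of complex II summed to 156 to 196 FPKM in 6-OHG, 166 to 185 FPKM in Mod and 175 to 205 FPKM in Con, and the 3 ranges overlapped. The 6-OHG libraries also had lower FPKM totals than the Mod libraries (272992 to 278335 against 282978 to 312908). As a share of the total, complex I took 0.359 to 0.405% in 6-OHG, 0.418 to 0.470% in Mod and 0.442 to 0.468% in Con, and complex IV 0.348 to 0.369%, 0.399 to 0.439% and 0.411 to 0.451% in the same order, again with 6-OHG lowest. The shares of complex III (0.120 to 0.136% in 6-OHG and 0.126 to 0.151% in Mod) and complex V (0.283 to 0.339% and 0.300 to 0.338%) overlapped between 6-OHG and Mod, as did those of complex II (0.0562 to 0.0718% and 0.0530 to 0.0655%), and those of complexes III and V stayed below Con.

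**Figure D1:**
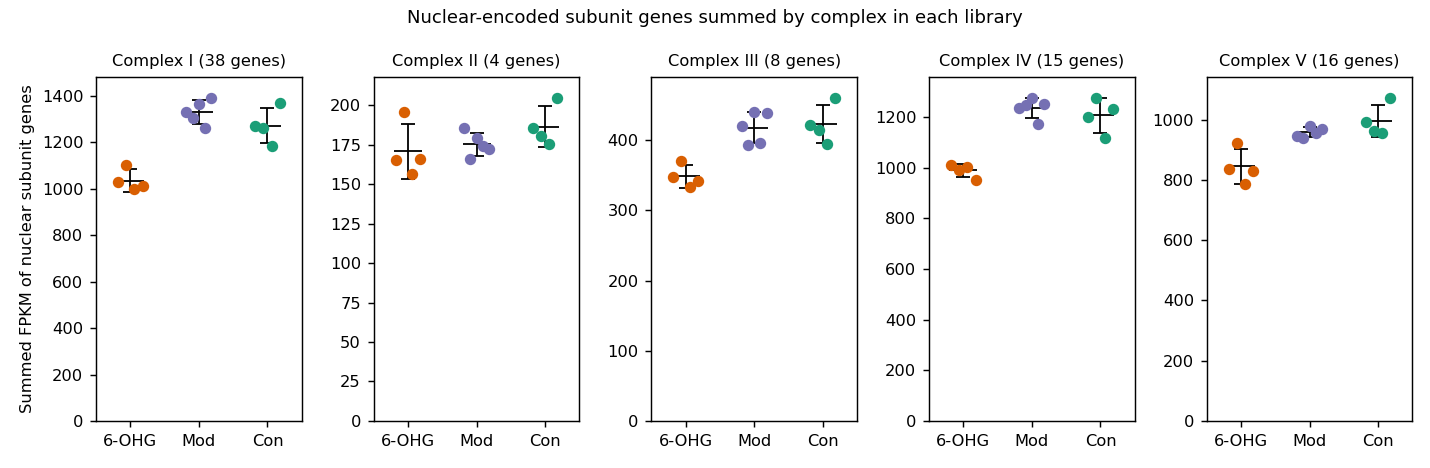
Summed FPKM, as deposited, of the subunits of each complex (one panel per complex, axis from 0) in every library of the 6-OHG, Mod and Con groups; points are libraries, and the bar with its whiskers is the mean ± SD. In complexes I, III, IV and V every 6-OHG point lies below every Mod and Con point, while in complex II the groups overlap.

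Gene by gene, 59 of the 81 subunits fell in 6-OHG against Mod and none rose, at an adjusted p under 0.05 in limma on log2(FPKM + 1) with Benjamini-Hochberg adjustment over 13905 genes. Over all genes tested, 8.35% were called lower and 6.98% higher. At an unadjusted p under 0.05 the counts were 72 lower and 0 higher. The median log2 difference was -0.34 for the subunits, against -0.02 for all genes tested, and 76 subunits had a negative and 5 a positive difference. By complex, 28 of 38 fell in complex I (median -0.37), 2 of 4 in complex II (-0.13), 4 of 8 in complex III (-0.30), 13 of 15 in complex IV (-0.34) and 12 of 16 in complex V (-0.34). Whether the complexes differ from one another was not tested. Every 6-OHG library lay below every Mod library for 60 subunits, which 8.34% of all genes tested did, and for 0 subunits did every 6-OHG library lie above, which 7.6% of all genes tested did.

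The count depended on scaling and on gene length. With libraries rescaled to equal FPKM sums 36 subunits were called lower, and with the trend of the difference on exon length and GC content removed 38 were. Equal sums also turned the balance over all genes tested: 45.5% of the calls were higher as deposited, and 77.7% with equal sums. With the replicate number as a block, a number that did not pair the samples, 39 were called lower, and with the block and the trend removal together 3. As deposited, with equal sums and with the trend removed alike, 29 subunits were called lower: 16 of complex I, 0 of complex II, 2 of complex III, 4 of complex IV and 7 of complex V.

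Against Con, 56 of the 81 subunits were lower in 6-OHG brains and none was higher, where 14.4% of all genes tested were called lower and 16.3% higher. At an unadjusted p under 0.05, 63 were lower and 1 higher, and 1 was called higher without 6-OHG replicate 3 or 4. The median log2 difference was -0.34, against 0.00 for all genes tested. By complex the falls were 23 in complex I, 2 in complex II, 6 in complex III, 11 in complex IV and 14 in complex V. The 6-OHG libraries lay wholly below the Con libraries for 55 subunits, which 12.5% of all genes tested did, and wholly above them for 0, which 15.6% did. Equal sums left 47 of these calls, and 50 were left once the trend on length and GC was taken out; 43 remained in both. The 6-OHG libraries enter both of these comparisons, so the counts are not independent. Set side by side, 48 subunits were called lower than in both Mod and Con, 11 lower than in Mod but not called against Con, and 8 lower than in Con but not called against Mod. The other 14 were called in neither, and they include catalytic and core subunits of complexes I, II, III and V (among them Ndufs1, Ndufs3, Sdha, Uqcrc1, Uqcrc2, Atp5a1 and Atp5b).

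**Figure D2:**
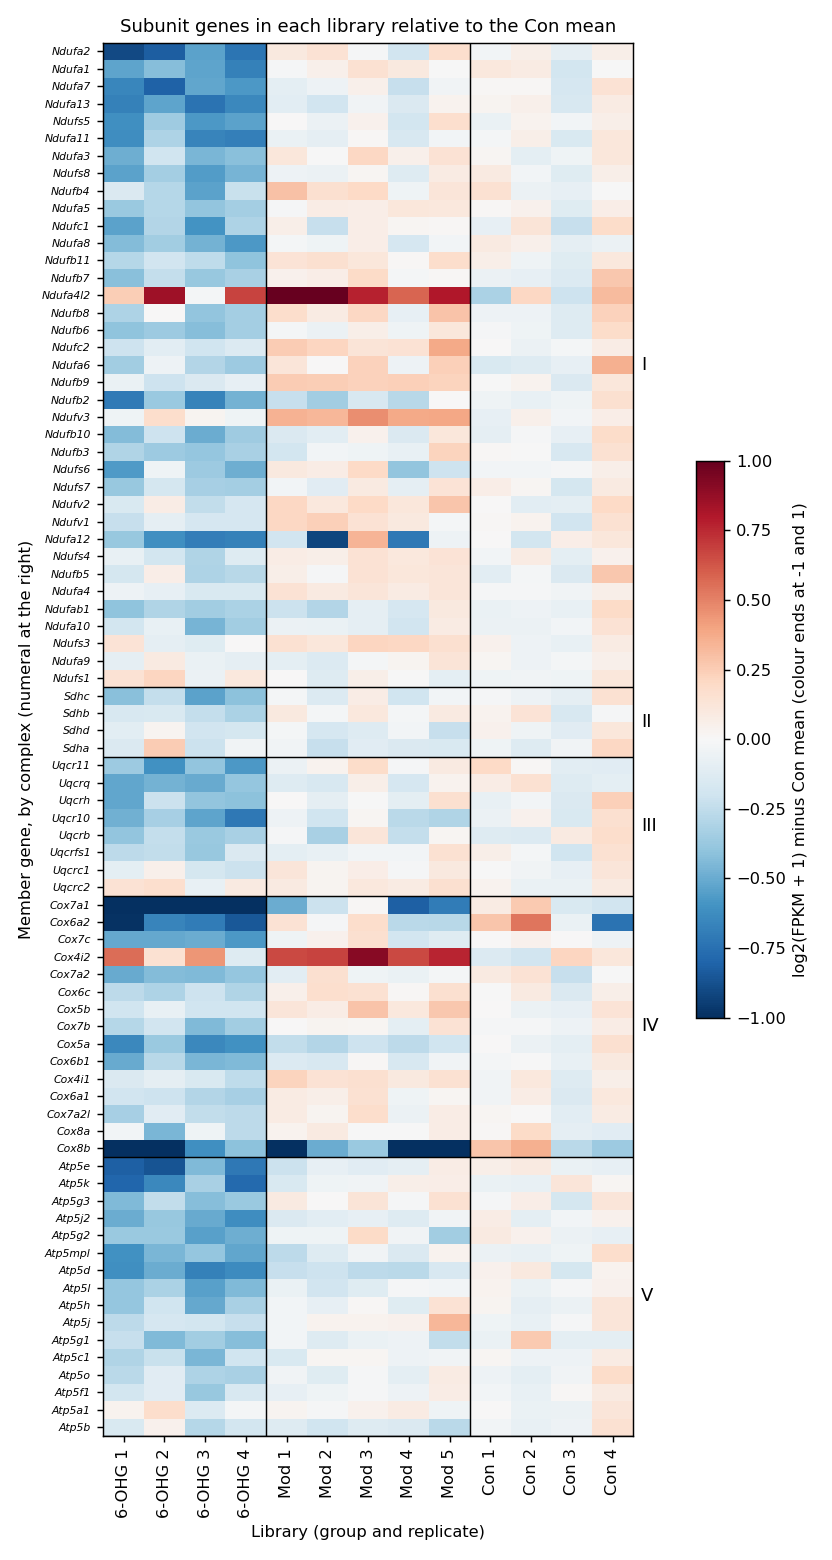
Subunits (rows, by complex, with 1 not shown, ordered by the difference between 6-OHG and Mod) in each library (columns: 6-OHG 1 to 4, Mod 1 to 5, Con 1 to 4), coloured by log2(FPKM + 1) minus the mean of the Con libraries and limited to 1 unit either way. The 6-OHG columns are below the Con mean for most subunits of complexes I, III, IV and V, and the Mod columns stay near it apart from a few genes.

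Promoters of respiratory chain genes are known to hold sites for the nuclear respiratory factor NRF1, a transcription factor of nuclear-encoded mitochondrial genes. In the RefSeq promoter table (GRCm38.p6), 65 of the 81 subunit genes had an entry, with 70 windows in all. The 250 bases before each start were searched on both strands for the NRF1 core GCATGCGC, whose matches on opposite strands can overlap because its inner bases read alike on both. The core was present in 8 of 70 windows (11.4%), against 4.18% of the 12620 windows of all genes tested. Its genes were Ndufa6, Ndufa8 and Ndufa11 of complex I, Sdhb of complex II, Cox6a1 of complex IV and Atp5g2, Atp5k and Atp5l of complex V. The windows of the 48 genes lower in both comparisons held it in 7 of 47 cases, and the windows of the other subunits in 1 of 23 (Ndufa6).

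The stretches below are shown because they belong to genes described by library further on, 5 with the core and 2 without it. The 5 genes were called lower in both 6-OHG comparisons and the 2 in neither, but these do not stand for all windows. Only 7 of the 47 windows of genes lower in both comparisons held the core. Its exact letters alone were searched, so a stretch without it may hold other forms of the NRF1 site. Each stretch is the 100 bases before the RefSeq start, on the strand of the gene, with the core and any overlapping match in capitals:
Atp5k, chr5:108434400-108434499, minus strand: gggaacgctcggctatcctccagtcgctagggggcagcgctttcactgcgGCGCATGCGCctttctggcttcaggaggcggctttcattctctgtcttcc
Ndufa11, chr17:56717662-56717761, plus strand: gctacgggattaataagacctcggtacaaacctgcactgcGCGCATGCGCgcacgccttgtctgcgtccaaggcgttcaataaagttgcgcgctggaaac
Atp5g2, chr15:102671048-102671147, minus strand: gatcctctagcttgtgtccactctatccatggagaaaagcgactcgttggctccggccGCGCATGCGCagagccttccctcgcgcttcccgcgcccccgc
Ndufa8, chr2:36049339-36049438, minus strand: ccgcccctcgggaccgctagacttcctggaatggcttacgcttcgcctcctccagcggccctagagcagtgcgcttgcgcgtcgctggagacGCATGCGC
Sdhb, chr4:140961171-140961270, plus strand: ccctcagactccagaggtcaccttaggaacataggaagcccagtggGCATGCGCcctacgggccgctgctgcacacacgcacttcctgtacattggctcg
Sdha, chr13:74350241-74350340, minus strand: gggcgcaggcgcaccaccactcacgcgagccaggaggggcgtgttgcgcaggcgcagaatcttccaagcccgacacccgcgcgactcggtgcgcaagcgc
Atp5b, chr10:128083207-128083306, plus strand: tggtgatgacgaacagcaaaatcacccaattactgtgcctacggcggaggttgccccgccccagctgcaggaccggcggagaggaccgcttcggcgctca

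The ETS core CCGGAAGT was in 4.29% of the subunit windows and 5.44% of the windows of all genes tested, and the YY1 motif AAGATGGCG in 1.43% and 1.13%. The oestrogen-related receptor motif AAGGTCA was in 7.14% of subunit windows and 2.81% of the windows of all genes tested, and the SP motif GGGCGG in 31.4% and 57.4%. The hypoxia response core ACGTG was in 14 of 70 subunit windows and in 21.5% of the windows of all genes tested, and its variant GCGTG in 28 of 70 and 44.1%. A CCAAT box was in 28 of 70 and 35.0%. These matches describe letters in a window and were not tested for binding or for a link to the differences.

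In complex I, the largest fall against Mod was that of Ndufa2, a small accessory subunit of the arm that takes up NADH. Ndufa2 had 21.1, 22.3, 27.5 and 23.9 FPKM in 6-OHG, 43.3, 44.8, 40.1, 35.2 and 45.6 FPKM in Mod and 39.6, 42.1, 38.0 and 42.1 FPKM in Con. Every 6-OHG library lay below every other library. The log2 difference was -0.79 (SE 0.09, adjusted p = 0.000837) against Mod and -0.75 (SE 0.09, adjusted p = 0.000135) against Con, and Mod differed from Con by 0.04.

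Ndufa1, an X-linked accessory subunit of the membrane arm (ENSMUSG00000016427, chrX:37187588-37191163, minus strand, GRCm38), had 39.6, 42.6, 39.5 and 35.7 FPKM in 6-OHG, 57.0, 59.8, 64.1, 61.6 and 57.5 FPKM in Mod and 62.0, 60.9, 50.6 and 57.4 FPKM in Con. Ndufa13, also known as GRIM-19, had 20.3, 22.7, 19.4 and 20.8 FPKM in 6-OHG, 30.6, 28.9, 32.3, 29.7 and 33.8 FPKM in Mod and 33.7, 34.2, 29.4 and 35.1 FPKM in Con. For both genes the 6-OHG libraries were the lowest 4 of the 13. Ndufa1 fell by 0.60 on the log2 scale against Mod (adjusted p = 0.001) and by 0.54 against Con (adjusted p = 0.000257), and Ndufa13 fell by 0.56 (adjusted p = 0.001) and by 0.65 (adjusted p = 7.17e-05).

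Ndufa6, the complex I gene with the NRF1 core whose stretch is not shown, had 6-OHG values that overlapped Mod and Con. Ndufa6 was called lower against Mod (-0.37, adjusted p = 0.0358), a call lost without any of 6 single libraries, and not called against Con (adjusted p = 0.0989). The stretches of the accessory subunits Ndufa11 and Ndufa8 are shown, and only genes lower in both comparisons have a stretch with the core shown. Ndufa11, of the membrane arm, had 27.1, 33.8, 26.3 and 25.8 FPKM in 6-OHG, 40.2, 39.5, 42.5, 37.7 and 41.3 FPKM in Mod and 41.7, 43.9, 37.8 and 45.6 FPKM in Con. Ndufa8, a subunit that faces the space between the membranes, had 49.2, 52.2, 47.7 and 44.5 FPKM in 6-OHG, 65.9, 64.7, 69.7, 59.3 and 65.3 FPKM in Mod and 71.1, 69.3, 62.7 and 64.0 FPKM in Con. Both were below Mod and Con in every 6-OHG library, with log2 differences against Mod of -0.50 and -0.42. Ndufa7, Ndufs5 and Ndufa3 of complex I fell by 0.56, 0.51 and 0.50 on the log2 scale against Mod. In all, 24 of the 31 complex I genes by symbol outside the core fell against Mod and 21 against Con. The 31 include Ndufa4, now counted with complex IV, and its paralogue Ndufa4l2.

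The 7 nuclear-encoded core subunits carry the flavin, the iron-sulphur clusters and the coenzyme Q site, and 4 of them fell against Mod (median -0.30; 1 with equal sums and 2 with the trend removed) and 2 against Con (Ndufs7 and Ndufs8). Ndufs8, which binds iron-sulphur clusters next to the coenzyme Q site, had 20.4, 23.5, 20.0 and 21.4 FPKM in 6-OHG, 29.0, 28.8, 30.4, 27.4 and 31.8 FPKM in Mod and 32.0, 29.4, 27.5 and 31.4 FPKM in Con. Ndufs7, which holds the last cluster before coenzyme Q, had 15.9, 18.5, 16.4 and 16.4 FPKM in 6-OHG, 20.5, 19.3, 22.4, 19.7 and 23.2 FPKM in Mod and 22.0, 21.3, 18.5 and 22.4 FPKM in Con. In both genes the 6-OHG libraries were lower than every Mod and Con library, although for Ndufs7 the highest 6-OHG and the lowest Con value were nearly equal. Ndufs8 fell by 0.45 against Mod (adjusted p = 0.00157) and by 0.48 against Con (adjusted p = 0.000346). Ndufs7 fell by 0.31 in both (adjusted p = 0.0144 and 0.00958), and both of its calls were lost with the length trend removed.

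Ndufv1, the NADH-binding flavoprotein, had 34.3, 37.8, 35.8 and 35.8 FPKM in 6-OHG, 46.7, 47.7, 44.7, 43.2 and 39.7 FPKM in Mod and 40.6, 41.2, 35.1 and 44.9 FPKM in Con. Its partner Ndufv2 had 38.1, 44.5, 35.5 and 37.6 FPKM in 6-OHG, 49.0, 45.7, 48.7, 45.9 and 51.6 FPKM in Mod and 42.5, 39.3, 39.5 and 48.7 FPKM in Con. The 6-OHG libraries were below all Mod libraries and overlapped Con in both genes. Each fell by 0.30 against Mod (adjusted p = 0.0167 for Ndufv1 and 0.0205 for Ndufv2), neither call held with equal sums, and neither gene was called against Con. The Ndufv2 call was also lost without 6-OHG replicate 1, 3 or 4, where the difference was -0.30, -0.26 and -0.29, and Ndufv1 was called lower than Con without Con replicate 3 (-0.23).

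Ndufs1, the largest subunit of complex I and the carrier of several iron-sulphur clusters, had 18.8, 19.8, 16.2 and 18.3 FPKM in 6-OHG, 17.0, 15.4, 17.7, 16.9 and 15.7 FPKM in Mod and 16.4, 16.5, 16.4 and 18.4 FPKM in Con. The 3 groups overlapped. The log2 difference for Ndufs1 was 0.14 between 6-OHG and Mod (adjusted p = 0.174) and 0.10 between 6-OHG and Con (adjusted p = 0.272).

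Complex II oxidises succinate in the tricarboxylic acid cycle and is the only respiratory complex with no mitochondrially encoded subunit. Its catalytic flavoprotein Sdha had 73.4, 97.1, 69.8 and 79.0 FPKM in 6-OHG, 79.1, 69.1, 75.0, 73.3 and 72.8 FPKM in Mod and 78.5, 74.1, 79.2 and 94.0 FPKM in Con. The membrane anchor Sdhd had 46.6, 51.2, 43.9 and 44.4 FPKM in 6-OHG, 49.6, 44.6, 45.8, 49.4 and 42.8 FPKM in Mod and 51.9, 48.9, 46.4 and 54.4 FPKM in Con. Neither gene separated the groups, with 6-OHG replicate 2 and Con replicate 4 the highest for Sdha. The differences from Mod were 0.10 for Sdha (adjusted p = 0.51) and 0.00 for Sdhd (adjusted p = 0.986), and those from Con were -0.03 and -0.11.

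The other membrane anchor, Sdhc (ENSMUSG00000058076, chr1:171127165-171150603, minus strand), had 15.0, 17.2, 13.8 and 15.2 FPKM in 6-OHG, 20.1, 18.5, 21.6, 17.7 and 20.1 FPKM in Mod and 20.2, 19.7, 19.2 and 22.8 FPKM in Con. All 6-OHG libraries were below all others, and Sdhc fell by 0.34 against Mod (adjusted p = 0.0108) and by 0.40 against Con (adjusted p = 0.00266). The iron-sulphur subunit Sdhb had 30.4, 30.6, 28.8 and 27.2 FPKM in 6-OHG, 36.6, 33.7, 36.8, 33.7 and 36.5 FPKM in Mod and 35.0, 37.7, 30.4 and 33.8 FPKM in Con. Sdhb fell by 0.27 against Mod without overlap (adjusted p = 0.0145) and by 0.22 against Con with overlap (adjusted p = 0.0271). With equal sums neither gene was called against Mod, and Sdhb was not called against Con. With the length trend removed Sdhb was called in neither comparison. Without 6-OHG replicate 4 the Sdhb difference was -0.24 against Mod and not called, and without Con replicate 1, Con replicate 2, 6-OHG replicate 3 or 6-OHG replicate 4 it was -0.17 to -0.21 against Con and not called, so that 1 of 4 complex II subunits was then lower.

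In complex III 4 of the small subunits were lower in 6-OHG against both groups, Uqcrb was called lower against Con only, and the large core proteins were not called. Uqcr11, the smallest subunit (ENSMUSG00000020163, chr10:80402997-80406830, minus strand), had 28.8, 24.2, 28.2 and 24.7 FPKM in 6-OHG, 35.9, 38.3, 42.6, 36.9 and 39.7 FPKM in Mod and 43.1, 37.7, 34.6 and 34.5 FPKM in Con. Every 6-OHG library lay below the rest, and Uqcr11 fell by 0.53 against Mod (adjusted p = 0.00175) and by 0.48 against Con (adjusted p = 0.00115). Uqcrq, a small subunit bound to cytochrome b, fell by 0.40 and 0.47, and the hinge protein Uqcrh, which helps cytochrome c1 meet cytochrome c, fell by 0.38 in both. Uqcr10 fell by 0.35 against Mod (adjusted p = 0.0229) and by 0.51 against Con (adjusted p = 0.00204). The Uqcr10 call against Mod was lost without Mod replicate 1, Mod replicate 3, 6-OHG replicate 3 or 6-OHG replicate 4, with differences of -0.29 to -0.35. It was also lost with equal sums or with the trend removed. Uqcrb, a small subunit that binds near coenzyme Q, differed from Mod by -0.24 (adjusted p = 0.106) with overlap, and fell by 0.33 against Con, a call lost without Con replicate 3 or 4 or 6-OHG replicate 1 or 3.

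The Rieske iron-sulphur protein Uqcrfs1 had 51.8, 52.2, 47.6 and 56.0 FPKM in 6-OHG, 58.0, 58.9, 61.0, 61.1 and 69.2 FPKM in Mod and 64.9, 61.3, 54.0 and 69.4 FPKM in Con. Its 6-OHG libraries lay below all Mod libraries but overlapped Con. The differences were -0.24 against Mod (adjusted p = 0.0513) and -0.26 against Con (adjusted p = 0.0302). The call against Mod was gained without Con replicate 3 or 4, and the call against Con was lost without Con replicate 1, 2 or 4 or 6-OHG replicate 1 or 3 (-0.21 to -0.26).

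The core proteins Uqcrc1 and Uqcrc2 form the matrix part of complex III. Uqcrc1 had 41.4, 46.0, 39.3 and 38.1 FPKM in 6-OHG, 48.4, 45.4, 46.6, 44.0 and 47.6 FPKM in Mod and 44.3, 43.3, 42.0 and 48.6 FPKM in Con. Uqcrc2 had 76.3, 77.5, 65.3 and 73.3 FPKM in 6-OHG, 73.2, 70.2, 73.9, 73.0 and 77.0 FPKM in Mod and 70.4, 65.7, 65.7 and 73.4 FPKM in Con. The groups overlapped in both genes, and the differences from Mod were -0.17 for Uqcrc1 (adjusted p = 0.086) and -0.01 for Uqcrc2. Without 6-OHG replicate 2 the Uqcrc1 difference from Mod was -0.22 and called. Cytochrome c1, encoded by Cyc1 and outside the naming rule, averaged 36.3 ± 2.84 FPKM in 6-OHG, 44.7 ± 1.77 FPKM in Mod and 46.3 ± 4.56 FPKM in Con (SD, n = 4, 5 and 4), and fell by 0.30 against Mod and 0.34 against Con, although the call against Mod was lost with equal sums or with the trend removed.

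**Figure D3:**
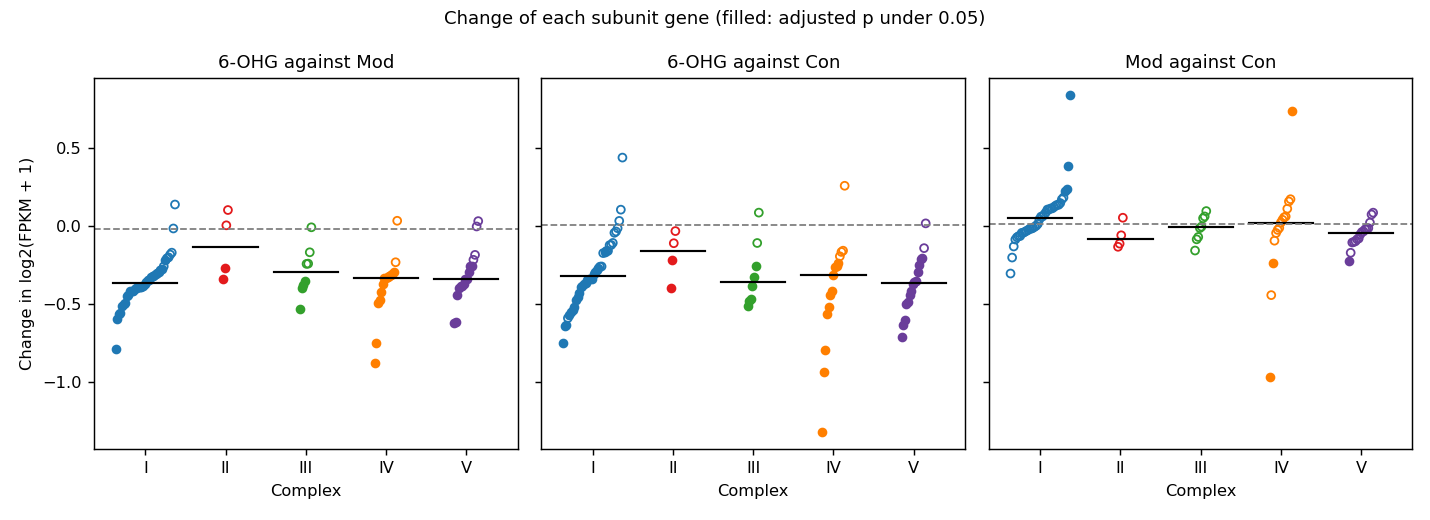
Log2 difference of every subunit by complex, in 3 panels (6-OHG against Mod, 6-OHG against Con and Mod against Con); filled points have an adjusted p under 0.05, the bar is the median of the complex and the dashed line the median of all genes tested. The medians of complexes I, III, IV and V lie near or below -0.30 in both 6-OHG panels, and the points of the third panel centre on 0.

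Complex IV had 13 of 15 subunits lower in 6-OHG against Mod, the exceptions being Cox8a and Cox8b. Cox7c (ENSMUSG00000017778, chr13:86044816-86046904, minus strand), a small membrane subunit, had 47.6, 47.6, 48.1 and 45.5 FPKM in 6-OHG, 66.3, 70.4, 76.3, 60.0 and 62.8 FPKM in Mod and 68.3, 70.3, 68.5 and 65.8 FPKM in Con. The 6-OHG libraries lay close together and well below all others. Cox7c fell by 0.50 against Mod (adjusted p = 0.00123) and by 0.52 against Con (adjusted p = 0.000199). Cox7a2, the isoform of subunit 7a found in most tissues, had 49.8, 52.1, 51.9 and 54.1 FPKM in 6-OHG, 65.7, 79.5, 68.9, 67.6 and 70.1 FPKM in Mod and 75.4, 78.6, 60.2 and 70.8 FPKM in Con, and fell by 0.43 against Mod and 0.44 against Con. The Cox7a2 call against Mod was lost with the length trend removed.

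Cox5a, a subunit on the matrix side (ENSMUSG00000000088, chr9:57521274-57532426, plus strand), had 24.4, 29.7, 24.3 and 25.0 FPKM in 6-OHG, 32.5, 31.4, 33.3, 32.1 and 33.6 FPKM in Mod and 38.7, 37.1, 36.0 and 43.2 FPKM in Con. The 3 groups did not overlap, and they ran upward in the order 6-OHG, Mod and Con. The difference was -0.33 against Mod (adjusted p = 0.0082), -0.57 against Con (adjusted p = 0.00017) and -0.24 for Mod against Con (adjusted p = 0.022). The first was not called with equal sums (-0.23, adjusted p = 0.058), and the last was not called without Con replicate 1 (-0.24) or Con replicate 4 (-0.19).

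The zinc-binding subunit Cox5b had 39.7, 43.2, 39.7 and 39.7 FPKM in 6-OHG, 49.7, 48.1, 55.8, 49.3 and 55.2 FPKM in Mod and 45.9, 43.8, 43.1 and 50.2 FPKM in Con. Cox6b1, which joins the complexes of a dimer, had 93.4, 109, 96.6 and 97.7 FPKM in 6-OHG, 121, 119, 134, 119 and 130 FPKM in Mod and 131, 133, 126 and 142 FPKM in Con. Both lay below Mod in every 6-OHG library; Cox6b1 also lay below Con, while Cox5b overlapped it. Cox5b fell by 0.34 against Mod (adjusted p = 0.00472) and was not called against Con (-0.17). Cox6b1 fell by 0.32 against Mod (adjusted p = 0.00515) and by 0.42 against Con (adjusted p = 0.000586). Both calls against Mod were lost with the length trend removed.

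Complex V has a catalytic head in the matrix and a rotor in the membrane, and its catalytic subunits were not called. Atp5a1, the alpha subunit of the head, had 225, 248, 200 and 217 FPKM in 6-OHG, 224, 217, 226, 232 and 213 FPKM in Mod and 220, 209, 211 and 239 FPKM in Con. Atp5b, the beta subunit that holds the catalytic sites, had 187, 214, 170 and 182 FPKM in 6-OHG, 190, 181, 189, 188 and 172 FPKM in Mod and 203, 197, 200 and 231 FPKM in Con. The 6-OHG libraries of both genes reached above and below all Mod libraries. The differences from Mod were -0.00 for Atp5a1 (adjusted p = 0.973) and 0.03 for Atp5b (adjusted p = 0.825). Without 6-OHG replicate 2, Atp5b was called lower than Con (-0.21).

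The smaller head subunits fell. Atp5c1, the gamma shaft, had 66.7, 70.6, 60.0 and 71.7 FPKM in 6-OHG, 74.1, 83.5, 83.7, 79.7 and 80.7 FPKM in Mod and 83.9, 79.5, 79.8 and 87.3 FPKM in Con. Atp5d, the delta subunit at its foot (ENSMUSG00000003072, chr10:80138632-80145818, plus strand), had 33.3, 36.1, 31.8 and 32.9 FPKM in 6-OHG, 43.7, 44.4, 42.7, 42.5 and 45.8 FPKM in Mod and 53.0, 55.0, 45.4 and 52.9 FPKM in Con. Atp5e, the epsilon subunit beside it (ENSMUSG00000016252, chr2:174461072-174464105, minus strand), had 11.2, 10.8, 14.9 and 12.1 FPKM in 6-OHG, 17.6, 19.4, 18.9, 19.2 and 21.7 FPKM in Mod and 21.5, 22.0, 19.6 and 19.3 FPKM in Con. In all of these genes the 6-OHG libraries were the lowest 4 of the 13. Atp5e fell by 0.62 against Mod (adjusted p = 0.00157) and by 0.71 against Con (adjusted p = 0.000179), and Atp5d by 0.38 (adjusted p = 0.00222) and 0.60 (adjusted p = 5.9e-05). Atp5c1 fell by 0.26 against Mod (adjusted p = 0.0165), a call lost with equal sums or with the trend removed, and by 0.30 against Con (adjusted p = 0.005). Atp5d was also lower by 0.23 in Mod against Con, with overlap (adjusted p = 0.0167), a call lost without Con replicate 1 or 2.

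In the membrane part, Atp5k, the e subunit, which takes part in dimer formation (ENSMUSG00000050856, chr5:108433244-108434448, minus strand), had 15.2, 16.9, 21.4 and 15.3 FPKM in 6-OHG, 24.2, 26.2, 26.3, 28.2 and 28.4 FPKM in Mod and 25.7, 25.6, 29.4 and 27.4 FPKM in Con. The 6-OHG libraries did not overlap the others, although 6-OHG replicate 3 was the nearest to them. Atp5k fell by 0.61 against Mod (adjusted p = 0.00172) and by 0.63 against Con (adjusted p = 0.000491). Its promoter stretch is among those with the NRF1 core. Atp5j2, Atp5l and Atp5mpl, further small membrane subunits, fell by 0.40, 0.34 and 0.38 against Mod and by 0.50, 0.42 and 0.49 against Con.

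The c subunit of the rotor ring is encoded by Atp5g1, Atp5g2 and Atp5g3, whose proteins differ in their import signals and share the mature sequence. Atp5g3 had 43.5, 50.0, 44.2 and 45.8 FPKM in 6-OHG, 63.3, 59.7, 65.0, 59.0 and 66.3 FPKM in Mod and 59.0, 62.2, 52.7 and 64.8 FPKM in Con. Atp5g2 had 20.5, 20.5, 18.1 and 18.9 FPKM in 6-OHG, 26.0, 26.0, 30.7, 26.2 and 20.9 FPKM in Mod and 28.7, 27.7, 25.7 and 25.4 FPKM in Con. Atp5g1 had 6.98, 5.91, 6.37 and 5.98 FPKM in 6-OHG, 8.22, 7.57, 7.94, 8.08 and 6.90 FPKM in Mod and 7.95, 10.3, 7.75 and 7.79 FPKM in Con. All 3 genes fell in both comparisons, by 0.44, 0.39 and 0.26 against Mod for Atp5g3, Atp5g2 and Atp5g1. The Atp5g1 call against Mod (adjusted p = 0.0498) was lost without any of 9 libraries (Con replicates 1 and 3, Mod replicates 1 to 4 and 6-OHG replicates 2 to 4), with differences of -0.23 to -0.26, and the Atp5g2 call against Mod was lost with equal sums or with the trend removed. The copies kept similar proportions: Atp5g2 averaged 42.6% of Atp5g3 in 6-OHG, 41.6% in Mod and 45.3% in Con, and Atp5g1 13.8%, 12.4% and 14.2%.

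The falls were graded by the size of the encoded protein, taken as the longest coding sequence of each gene in GENCODE M21. Of the 47 subunits of up to 150 residues, 41 fell against Mod (median -0.39) and 40 against Con (-0.42). Of the 23 subunits of 150 to 300 residues, 16 fell against Mod (-0.31) and 15 against Con (-0.26). With equal sums the counts against Mod were 29 for up to 150 residues and 6 for 150 to 300, and with the length and GC trend removed 28 and 9. Of the 11 subunits over 300 residues, 2 fell against Mod (-0.02; 1 with equal sums or with the trend removed) and 1 against Con (-0.04; 0 with equal sums). The 2 were Ndufv1 and Ndufv3, and the 1 was Ndufa10; without 6-OHG replicate 2 the counts were 5 against Mod and 2 against Con, and without Con replicate 4, 6-OHG replicate 3 or 6-OHG replicate 4 the count against Con was 0.

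The same grading was present among all genes tested. In the same classes of size, 33.2%, 14.7% and 4.06% of all genes tested were called lower against Mod (834, 2375 and 8826 genes, medians -0.23, -0.11 and 0.02). Against Con the shares were 35.0%, 20.4% and 12.1%. The subunits had a median of 137 residues and 1569 exon bases, and all genes tested had 466 residues and 4102.5 exon bases. Across the 81 subunits the difference from Mod had a Spearman's rho of 0.56 with the number of residues, and the difference from Con 0.60; across 12035 genes tested it was 0.45 and 0.26. Within complex V (n = 16) rho was 0.82 for the difference from Mod and 0.78 for that from Con, and within complex I (n = 38) 0.61 and 0.51. Within complex IV (n = 15), which has no subunit over 300 residues, it was -0.04 and 0.42. Genes share the libraries and are not independent, so these are descriptions.

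By exon length in GENCODE M21, 17.5% of all genes tested with up to 1 kb of exons were called lower against Mod, and 17 of the 21 subunits were. For 1 to 2 kb the figures were 21.7% of genes and 26 of 31 subunits, for 2 to 4 kb 10.5% and 12 of 18, and for over 4 kb 2.5% and 4 of 11. Without 6-OHG replicate 3 the last count was 2. Against Con the figures in the same order were 15.3% of genes and 18 subunits, 22.6% and 23, 17.5% and 9, and 10.6% and 6, and the 9 were 5 without 6-OHG replicate 3 or 4. The median differences from Mod in these classes were -0.40, -0.38, -0.30 and -0.21 for the subunits and -0.16, -0.18, -0.08 and 0.05 for all genes tested. The median differences from Con were -0.44, -0.35, -0.19 and -0.21 for the subunits and -0.07, -0.10, -0.04 and 0.05 for all genes tested. With equal sums the counts against Mod were 13, 17, 4 and 2, and with the trend removed 10, 14, 9 and 5. Against Con the 9 were 5 with equal sums. The part of gene length in the falls was not tested beyond the removal of its trend.

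**Figure D4:**
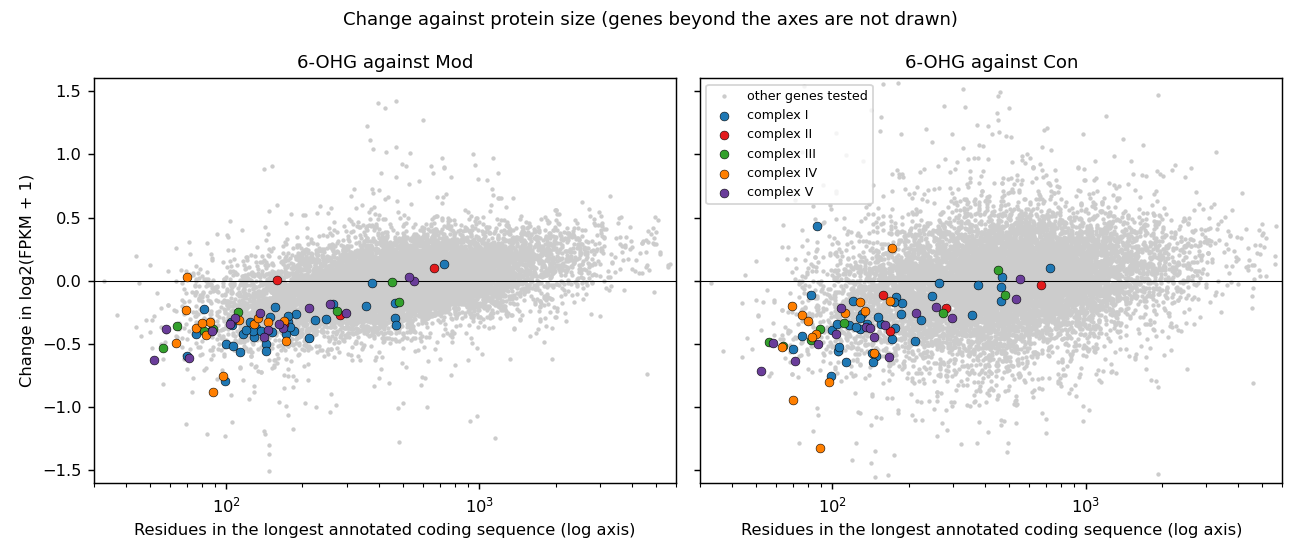
Log2 difference of 6-OHG against Mod and of 6-OHG against Con (one panel each) plotted against the number of encoded residues (log axis), with subunits coloured by complex over all other genes tested in grey. Subunits of up to 150 residues centre on -0.39 and -0.42, and the 11 subunits over 300 residues on -0.02 and -0.04.

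Few subunits differed between exposed brains without 6-OHG and brains at normal condition. In Mod against Con 3 subunits were called lower (Cox5a, Atp5d and Cox8b, which passed the minimum only through Con) and 5 higher (Ndufa4l2, Cox4i2, Ndufv3, Ndufb9 and Ndufc2), where 9.81% of all genes tested were called lower and 14% higher. The unadjusted counts were 6 and 10. Every Mod library lay below every Con library for 3 subunits (Cox5a, Cox8b and Atp5b) and above for 7, which 8.87% and 13.5% of all genes tested did. The median log2 difference of the subunits was -0.01, against 0.01 for all genes tested. The 3 lower calls did not hold when single libraries were left out: 0 were left without Con replicate 1, 1 without Con replicate 2 and 4 lower calls were made at most. The 5 higher calls were kept without any single library, and 8 were made without Con replicate 4. With equal sums 3 were higher and 3 lower, and with quantile normalization 8 were higher and 3 lower. Over all genes tested, 58.7% of the calls were higher as deposited and 40.6% with equal sums.

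The highest rises were those of isoforms. Ndufa4l2, a paralogue of Ndufa4 known as a target of the hypoxia-inducible factor HIF-1 (ENSMUSG00000040280, chr10:127514967-127517154, plus strand), had 1.87, 3.36, 1.40 and 2.86 FPKM in 6-OHG, 3.97, 3.83, 3.12, 2.62 and 3.23 FPKM in Mod and 0.951, 1.79, 1.10 and 2.02 FPKM in Con. Every Mod library was above every Con library, and the 6-OHG libraries overlapped both groups. Mod exceeded Con by 0.84 (SE 0.18, adjusted p = 0.0057). For 6-OHG the difference was -0.40 from Mod (adjusted p = 0.156) and 0.44 from Con (adjusted p = 0.10). Without 6-OHG replicate 3 the difference from Con was 0.59 and called, and 6-OHG was also called higher than Con with the length and GC trend removed.

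Cox4i2, the isoform of subunit 4 known to be induced by low oxygen (ENSMUSG00000009876, chr2:152754173-152765037, plus strand), had 2.58, 1.70, 2.29 and 1.22 FPKM in 6-OHG, 2.83, 2.89, 3.57, 2.84 and 3.11 FPKM in Mod and 1.2, 1.13, 1.82 and 1.62 FPKM in Con. Mod lay above both other groups without overlap, and exceeded Con by 0.73 (SE 0.13, adjusted p = 0.00203). In 6-OHG it was 0.48 lower than in Mod (adjusted p = 0.0297) and not called against Con (0.26). The fall against Mod was lost without Mod replicate 2, 3 or 5 or 6-OHG replicate 2 or 4 (-0.35 to -0.49), with equal sums (-0.41) and with the length and GC trend removed. Without 6-OHG replicate 4 the difference from Con was 0.39 and called. With the trend removed Cox4i2 was also called higher in 6-OHG than in Con. Cox4i2 is known from endothelial cells and pericytes of brain vessels. Endothelial markers were called higher in Mod than in Con for 6 of 7 genes. Pericyte and smooth muscle markers were called higher for 3 and lower for 2 of the 7 tested. Over all genes tested, 14% were called higher and 9.81% lower in that comparison. The part of vessel cells in the Cox4i2 rise was not tested.

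The common partners of these isoforms are far more abundant. Cox4i1 (ENSMUSG00000031818, chr8:120668222-120674207, plus strand) had 177, 184, 176 and 164 FPKM in 6-OHG, 229, 217, 219, 209 and 217 FPKM in Mod and 191, 211, 179 and 204 FPKM in Con. Ndufa4, now counted with complex IV although its symbol is of complex I, had 104, 102, 97.1 and 96.7 FPKM in 6-OHG, 119, 115, 117, 114 and 117 FPKM in Mod and 107, 107, 105 and 112 FPKM in Con. Both genes fell in 6-OHG against Mod without overlap, by 0.32 and 0.22, and neither was called in Mod against Con (0.16 and 0.11). Without Con replicate 3, Cox4i1 was also called lower in 6-OHG than in Con (-0.20), and both calls against Mod were lost with the length trend removed. Cox4i2 stood at 1.11% of Cox4i1 in 6-OHG (0.741 to 1.46%), 1.40% in Mod (1.24 to 1.63%) and 0.745% in Con (0.537 to 1.02%). Ndufa4l2 stood at 2.38% of Ndufa4 in 6-OHG (1.44 to 3.30%), 2.88% in Mod (2.29 to 3.34%) and 1.35% in Con (0.891 to 1.80%).

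Cox7a1, Cox6a2 and Cox8b are the isoforms of complex IV known from heart and skeletal muscle. Cox7a1 (ENSMUSG00000074218, chr7:30184144-30186078, plus strand) had 0, 0.503, 0.285 and 0.398 FPKM in 6-OHG, 1.27, 1.76, 2.23, 0.820 and 0.970 FPKM in Mod and 2.40, 2.85, 1.88 and 1.80 FPKM in Con. The 6-OHG libraries were the lowest, with no overlap, and the Mod libraries overlapped Con. Cox7a1 fell by 0.88 against Mod (SE 0.18, adjusted p = 0.00678). Its differences from Con, through which it passed the minimum, were -1.32 in 6-OHG and -0.44 in Mod. At these low levels log2(FPKM + 1) understates the difference: the means were 0.297 ± 0.217 FPKM in 6-OHG, 1.41 ± 0.581 FPKM in Mod and 2.23 ± 0.488 FPKM in Con (SD, n = 4, 5 and 4). The ratio of Cox7a1 to Cox7a2 averaged 0.563% in 6-OHG, 1.99% in Mod and 3.12% in Con.

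Cox6a2 had 2.04, 2.82, 2.71 and 2.36 FPKM in 6-OHG, 5.68, 4.98, 5.82, 4.00 and 3.99 FPKM in Mod and 6.29, 7.75, 4.75 and 2.61 FPKM in Con. It lay below Mod in every 6-OHG library and overlapped Con through Con replicate 4. The differences were -0.75 against Mod (adjusted p = 0.0275) and -0.80 against Con (adjusted p = 0.0149), and the first was lost without Mod replicate 1, 2 or 3 or 6-OHG replicate 1 or 4 (-0.69 to -0.74). The Cox6a2 call against Mod was also lost with equal sums or with the trend removed. The common isoform Cox6a1 had 173, 171, 161 and 156 FPKM in 6-OHG, 209, 206, 219, 192 and 200 FPKM in Mod and 193, 208, 179 and 213 FPKM in Con. Cox6a1 fell by 0.31 against Mod and by 0.26 against Con, and both calls were lost with the trend removed.

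Cox8b (ENSMUSG00000025488, chr7:140898945-140900446, minus strand) had 0.306, 0.308, 1.19 and 1.53 FPKM in 6-OHG, 0.682, 1.38, 1.6, 0.244 and 0.152 FPKM in Mod and 3.08, 3.31, 1.80 and 1.61 FPKM in Con. Both exposed groups lay below Con, narrowly at their highest libraries, and overlapped each other. The difference from Con, through which it passed the minimum, was -0.94 in 6-OHG (-0.80 to -0.85 without Con replicate 1 or 2 or 6-OHG replicate 1 or 2) and -0.97 in Mod (-0.83 to -0.88 without Con replicate 1 or 2 or Mod replicate 4 or 5). The difference between 6-OHG and Mod was 0.03. Cox8a, the common isoform, had 249, 184, 246 and 211 FPKM in 6-OHG, 259, 270, 252, 252 and 267 FPKM in Mod and 255, 290, 237 and 234 FPKM in Con, and was called in no comparison. The 5 skeletal muscle markers summed to 3.13 to 4.89 FPKM in 6-OHG, 2.90 to 8.20 FPKM in Mod and 2.57 to 4.63 FPKM in Con, and 1 of 5 passed the minimum.

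**Figure D5:**
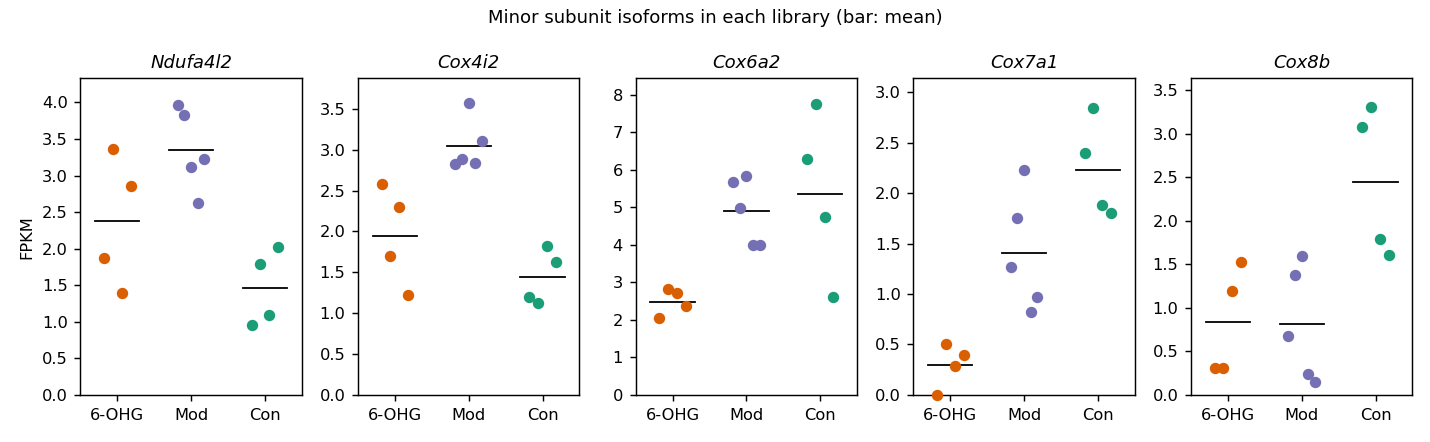
FPKM of the isoforms Ndufa4l2, Cox4i2, Cox6a2, Cox7a1 and Cox8b in every library of the 6-OHG, Mod and Con groups (points, axis from 0), with the bar at the group mean. Mod lies above Con for Ndufa4l2 and Cox4i2, the 6-OHG libraries are lowest for Cox7a1, and Cox8b is highest in Con.

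The 3 remaining rises with exposure were complex I subunits that were lower in 6-OHG than in Mod, as were 59 of all 81 subunits. The Mod libraries enter both comparisons, so a rise over Con and a fall in 6-OHG are not independent. Ndufv3, a small accessory partner of Ndufv1 and Ndufv2 with a long splice form (ENSMUSG00000024038, chr17:31520115-31531331, plus strand), had 9.83, 11.6, 10.4 and 9.85 FPKM in 6-OHG, 13.2, 13.0, 14.4, 13.5 and 13.5 FPKM in Mod and 9.51, 10.5, 9.93 and 10.7 FPKM in Con. Mod stood above both other groups, which overlapped each other. Ndufv3 fell by 0.35 in 6-OHG against Mod (adjusted p = 0.00242), rose by 0.38 in Mod against Con (SE 0.06, adjusted p = 0.000601), and differed by 0.03 between 6-OHG and Con.

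Ndufb9, a membrane arm subunit, had 78.4, 71.1, 74.5 and 77.8 FPKM in 6-OHG, 98.3, 97.6, 96.5, 97.2 and 96.3 FPKM in Mod and 82.2, 84.3, 74.3 and 89.0 FPKM in Con. Ndufc2, which sits in the same arm, had 38.1, 40.8, 38.3 and 40.0 FPKM in 6-OHG, 52.6, 51.4, 48.4, 48.9 and 57.7 FPKM in Mod and 44.1, 42.2, 43.5 and 46.5 FPKM in Con. Mod was highest in both without overlap. Mod exceeded Con by 0.24 for Ndufb9 (adjusted p = 0.00845) and by 0.23 for Ndufc2 (adjusted p = 0.0131), and both calls were lost with equal sums (0.17 and 0.15). In 6-OHG against Mod, Ndufb9 fell by 0.36 and Ndufc2 by 0.39, and the Ndufb9 call was lost with the trend removed (-0.13). Without Con replicate 3 for Ndufb9 (-0.17) and without Mod replicate 5 for Ndufc2 (-0.16), 6-OHG was also called lower than Con.

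The 13 mitochondrially encoded subunits, which join these proteins in complexes I, III, IV and V, were not called lower in any comparison as deposited. With single libraries left out the count lower stayed 0. Over all settings it reached 1 in 6-OHG against Mod, 2 in 6-OHG against Con and 1 in Mod against Con. In 6-OHG against Mod limma called 0 of 13 in either direction, and 2 were lower and 0 higher at an unadjusted p under 0.05. In 6-OHG against Con it called 1 higher, mt-Nd5 of complex I, by 0.41, a call lost without any of 7 single libraries (Con replicates 1 to 3 and 6-OHG replicates 1 to 4), and 2 were called higher without Con replicate 4. In Mod against Con it called 0, with 4 higher at an unadjusted p under 0.05, and 5 were called higher without Con replicate 4 and 1 without Mod replicate 1 or 4. They summed to 56720 to 64350 FPKM in 6-OHG, 57825 to 80404 FPKM in Mod and 49312 to 69235 FPKM in Con, which overlapped throughout. Their median difference was -0.16 in 6-OHG against Mod, 0.08 in 6-OHG against Con and 0.21 in Mod against Con. The nuclear subunits took 1.58 to 1.71% of the nuclear FPKM in 6-OHG, 1.82 to 1.93% in Mod and 1.82 to 1.97% in Con.

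Assembly factors build the complexes without being part of them. Of 15 factors of complex I, 2 were lower in 6-OHG against Mod, 7 lower and 1 higher in 6-OHG against Con and 6 lower and 2 higher in Mod against Con, where 8.35%, 14.4% and 9.81% of all genes tested were lower. The genes called higher were Foxred1, by 0.31 in 6-OHG and 0.32 in Mod, and Ndufaf7, by 0.16 in Mod. In those comparisons 16.3% and 14% of all genes tested were higher. The Foxred1 calls were lost without Con replicate 3, the one in 6-OHG also without Con replicate 2 and the one in Mod also with equal sums. The Ndufaf7 call was lost with equal sums, with the trend removed, and without Con replicate 2, 3 or 4, any Mod replicate or 6-OHG replicate 1 or 3. The count lower in 6-OHG against Mod was 0 without Mod replicate 3 or 6-OHG replicate 3, or with equal sums or the trend removed, and 1 without Mod replicate 5 or 6-OHG replicate 2. Ndufaf1, which acts in building the membrane arm, averaged 8.67 ± 0.749 FPKM in 6-OHG, 9.12 ± 0.301 FPKM in Mod and 11.6 ± 0.485 FPKM in Con, a difference of -0.38 from Con in 6-OHG and of -0.32 in Mod (adjusted p = 0.00196). Ndufaf4 and Dmac1 had differences from Con of -0.30 and -0.41 in 6-OHG and of -0.27 and -0.30 in Mod. Differences between 6-OHG and Mod were -0.07 for Ndufaf1, -0.03 for Ndufaf4 and -0.11 for Dmac1, and were not called.

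Of 21 factors of complex IV, 4 were lower in 6-OHG against Mod and 5 in 6-OHG against Con. Over all genes tested the shares called lower were 8.35% and 14.4%. The first count was 2 without Mod replicate 3 or without 6-OHG replicate 1, 3 or 4, and the second was 3 without Con replicate 1 or 6-OHG replicate 3. Coa3, which stabilises newly made Cox1, averaged 23.0 ± 1.52 FPKM in 6-OHG, 32.4 ± 3.56 FPKM in Mod and 34.6 ± 2.57 FPKM in Con, and fell by 0.47 against Mod, a call lost with the trend removed, and by 0.57 against Con. Cox14, its partner, fell by 0.49 and 0.73. Cox19, a copper-related factor, stood higher in both exposed groups than in Con, by 0.46 in 6-OHG and 0.51 in Mod.

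Of 6 factors of complex III, 2 were lower in 6-OHG against Mod and 4 against Con. The shares called lower over all genes tested were 8.35% and 14.4%. Uqcc3 averaged 10.0 ± 0.90 FPKM in 6-OHG, 14.8 ± 1.15 FPKM in Mod and 12.1 ± 0.221 FPKM in Con, and fell by 0.52 against Mod. Of the 4 factors of complex II limma called 0 lower in each comparison, also at an unadjusted p under 0.05. Sdhaf1, which helps insert iron-sulphur clusters into Sdhb, averaged 3.41 ± 0.318 FPKM in 6-OHG, 3.57 ± 0.319 FPKM in Mod and 2.38 ± 0.286 FPKM in Con, and was higher than Con by 0.39 in 6-OHG and by 0.44 in Mod. The inhibitor of complex V, Atpif1, averaged 41.9 ± 2.62 FPKM in 6-OHG, 54.3 ± 2.56 FPKM in Mod and 54.6 ± 1.63 FPKM in Con, and fell by 0.37 in both comparisons, although the call against Mod was lost with the trend removed.

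Regulators of mitochondrial biogenesis control the transcription of these genes and of mitochondrial DNA. Of 14 regulators, limma called 3 higher and 0 lower in 6-OHG against Mod (3 and 2 at an unadjusted p under 0.05): the PGC-1 coactivators Ppargc1a, Ppargc1b and Pprc1, which drive transcription of respiratory chain genes. In that comparison 6.98% of all genes tested were called higher and 8.35% lower. Ppargc1a averaged 8.85 ± 2.06 FPKM in 6-OHG, 5.98 ± 0.426 FPKM in Mod and 6.49 ± 0.797 FPKM in Con, and Ppargc1b averaged 1.62 ± 0.251 FPKM, 0.849 ± 0.136 FPKM and 1.02 ± 0.107 FPKM in the same order. Ppargc1a rose by 0.48 against Mod (adjusted p = 0.0156) and Pprc1 by 0.26 (adjusted p = 0.00506). Ppargc1b, with a difference of 0.50, passed the minimum only through its level in 6-OHG, so its call is no support. Against Con 3 were called higher and 1 lower, Esrra, by -0.17, where 16.3% of all genes tested were called higher and 14.4% lower. The 3 became 1 without 6-OHG replicate 4, and the Esrra call was lost without any of 9 single libraries (Con replicates 1 and 2, Mod replicates 1, 2, 3 and 5, and 6-OHG replicates 1, 3 and 4). Nrf1, the factor whose core was searched above, averaged 1.03 ± 0.0755 FPKM in 6-OHG, 1.24 ± 0.145 FPKM in Mod and 1.2 ± 0.0691 FPKM in Con and was not called (-0.14 against Mod).

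Of 11 genes linked to the response to low oxygen, 6 were called higher and 1 lower in 6-OHG against Con, where 16.3% of all genes tested were called higher. In Mod against Con 7 were higher (5 with equal sums) and 0 lower (limma, also 0 lower at an unadjusted p under 0.05), where 14% of all genes tested were called higher. The gene called lower, Higd2a, an inner membrane protein of complex IV supercomplexes, fell by 0.32 against Con and was also the 1 gene called lower in 6-OHG against Mod, by 0.43; both calls were lost with the trend removed, and the count against Mod was 2 without Mod replicate 5 or 6-OHG replicate 1 and 3 without 6-OHG replicate 2. Bnip3, a mitophagy receptor and HIF-1 target, averaged 95.1 ± 10.4 FPKM in 6-OHG, 107 ± 2.30 FPKM in Mod and 41.8 ± 1.53 FPKM in Con, a difference of 1.33 for Mod against Con (adjusted p = 6.61e-08). Pdk1, which restrains entry of pyruvate into the tricarboxylic acid cycle, was higher than Con by 0.55 in 6-OHG and by 0.52 in Mod. Of 13 genes of that cycle, 5 were called lower in 6-OHG against Con (2 to 8 with single libraries left out, 2 with equal sums). In Mod against Con 3 were (1 to 4 with single libraries left out). Over all genes tested, 14.4% and 9.81% were called lower. The median differences of the 13 were -0.13 and -0.07, and the lowest was -0.54 in both. Ogdh, a rate-setting enzyme of that cycle, was lower than Con by 0.54 in each exposed group, with 31.9 ± 1.98 FPKM in 6-OHG, 31.9 ± 1.73 FPKM in Mod and 46.9 ± 4.36 FPKM in Con.

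Some of these genes have near copies with which they may share reads, and how such reads were counted is not given in the sources used here. The processed pseudogene Cox6c2 averaged 6.22 ± 0.991 FPKM in 6-OHG, 10.2 ± 2.25 FPKM in Mod and 7.99 ± 0.764 FPKM in Con and was itself 0.63 lower in 6-OHG than in Mod, which makes Cox6c uncertain. The processed pseudogene Ndufb4c, at 17.0 FPKM, likewise may share reads with Ndufb4. Ndufb1-ps, left out of the subunits by its name, is annotated as a long noncoding RNA at a bidirectional promoter and averaged 13.6 FPKM. Ndufb1-ps was called lower in 6-OHG, by 0.56 against Mod and by 0.39 against Con (limma, adjusted p = 0.00395 and 0.0153). The gene length behind FPKM was not stated either, so a level such as 4.56 FPKM for Ndufb2, whose exons span 5628 bases in GENCODE M21, cannot be set directly against 47.4 FPKM for Ndufb3 with 763 bases.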

How the data were processed

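RNA from mouse brain was extracted with Trizol and sequenced as paired reads on an Illumina NovaSeq, per the labels' protocols. The authors deposited 1 table of FPKM per gene for 13 libraries, with Ensembl gene IDs and no counts. The submitters' processing notes name featureCounts 1.5.0-p3, StringTie 2.1.6, HISAT2 2.2.1, cutadapt 1.9, edgeR, DESeq2 and FastQC, along with the builds GRCm38 and mm10. Which tool made the FPKM values, the gene length used, the strand setting and the handling of shared reads are not given in the sources used here. Depth is unknown, so no counting error or detection limit is given.

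Symbols, positions, exon length and coding length came from GENCODE M21 (GRCm38), where 37499 IDs had a symbol and 137 had none. Genes with a mean of 1 FPKM or more (13905) were tested with limma 3.58.1 in R 4.3.3 on log2(FPKM + 1), with 1 mean per group over all 13 libraries, variances moderated with a trend on the mean, and Benjamini-Hochberg adjustment over all genes tested; calls have an adjusted p under 0.05. Log2 differences are on that scale, which understates changes of low genes. The fit was tested on simulated data with known changes. Medians, sums and figures used Python 3.11.15 and matplotlib 3.10.9. All columns were mapped to samples by name (0 left unused).

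The labels do not say that the replicates of a group are separate animals, so the p-values reflect the scatter of these libraries alone, and that scatter may be technical. Same-numbered samples did not deviate together: of 12 pairs, the correlations ran from -0.483 to 0.346, and 3 were over 0.1, so the numbers were not used as pairs. The subunits, gene lists, marker lists and motifs were chosen with earlier results of these data known. Values in every library are given for subunits with the largest called changes in each complex, the Sdh genes, the isoform partners and the core subunits. They are also given for Ndufa1, Ndufa8, Ndufa11, Ndufa13, Cox7c, Atp5k, Ndufv3, Ndufb9 and Ndufc2. These genes belong to none of those groups and followed no preset rule, so they do not stand for all subunits. Of each other list, up to 3 genes with the smallest p in a comparison are named. Nrf1, Higd1a, Ndufb1-ps and the pseudogenes were named after their values were seen. Alternatives were a smaller pseudocount of 0.1, no minimum or one of 5 FPKM, equal sums of all or of nuclear genes, quantile normalization, median-of-ratios scaling, only the groups compared, sample weights, a length and GC trend removed, a replicate block, and each library left out. A single subunit of complex I is counted in the totals and is not reported here on its own. Promoter sequences are those of RefSeq on GRCm38.p6.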

Additional observations from a re-analysis of the deposited data

Results flagged for a closer look

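The 5 values below stood far from the other libraries of their group, by the gap to the nearest library as a share of the range; 132 groups of values were examined, and chance alone marks about 1 in 20 of them. Atp5g1 had 10.3 FPKM in Con replicate 2, against 7.75 to 7.95 FPKM in the other Con libraries. Cox5a had 29.7 FPKM in 6-OHG replicate 2, against 24.3 to 25.0 FPKM in the other 6-OHG libraries, and Cox5b had 43.2 FPKM in the same library, against 39.7 FPKM in each of the others. Ndufs1 had 18.4 FPKM in Con replicate 4, against 16.4 to 16.5 FPKM in the other Con libraries. Uqcrfs1 had 69.2 FPKM in Mod replicate 5, against 58.0 to 61.1 FPKM in the other Mod libraries. 6-OHG replicate 2 and Con replicate 4 were also the libraries least like the rest of their groups over all genes tested, with mean correlations of 0.963 and 0.969.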

How the results depend on the processing

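No called subunit changed direction under any of the 27 settings, and the median difference of the subunits stayed negative in both 6-OHG comparisons. In 6-OHG against Mod, 59 subunits were lower; the count was 36 with equal sums, 38 with the length and GC trend removed, 39 with the replicate number as a block (replicate block) and 3 with the trend removed and the replicate block together, and 51 to 64 with single libraries left out. The count higher, 0, was 1 with quantile normalization and 1 with equal sums of nuclear genes. In 6-OHG against Con, the 56 lower calls ranged from 43 to 59 over all settings. The count higher, 0, was 1 with quantile normalization, 2 with the trend removed, 1 with trend removed and block, 1 with sample weights, and 0 to 1 with single libraries left out. In Mod against Con, the 3 lower calls became 8 with the trend removed, 1 with the block and 0 to 4 with single libraries left out. The 5 higher calls became 3 with a minimum of 5 FPKM, 3 with equal sums, 8 with quantile normalization, 3 with trend removed and block, 11 with sample weights, 5 to 8 with single libraries left out, and 12 without Con replicate 4 and 6-OHG replicate 2, a setting added after seeing the data. The causes were not tested. Stability in every setting was counted for the largest called changes, the Sdh genes, the isoform partners and the core subunits. Of their calls, 16 of 51 lower and 2 of 2 higher calls (Ndufa4l2 and Cox4i2) held in every setting. Of their uncalled values, 37 of 61 stayed uncalled, and of 1595 values uncalled under both the chosen and another setting, 111 had the other sign. Other subunits described by library are not in these counts, among them Ndufb9 and Ndufc2, whose higher calls were lost with equal sums. All genes tested split 53.2% higher among calls in 6-OHG against Con as deposited and 64.2% with equal sums of nuclear genes. Depth, gene length and the source of each library are unknown, which limits what levels near 1 FPKM can show.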

Other observations

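Among genes of cytochrome c and coenzyme Q supply, which stand between the complexes, Coq8a, a regulator of coenzyme Q synthesis, averaged 8.07 ± 0.633 FPKM in 6-OHG, 8.66 ± 0.634 FPKM in Mod and 5.07 ± 0.421 FPKM in Con (SD, n = 4, 5 and 4). It was higher than Con by 0.58 in 6-OHG and by 0.67 in Mod (limma, adjusted p = 0.000148 and 3.05e-05). Pdss1, which makes the tail of coenzyme Q, averaged 4.32 ± 0.401 FPKM in 6-OHG, 3.80 ± 0.307 FPKM in Mod and 2.61 ± 0.27 FPKM in Con, and was higher than Con by 0.56 in 6-OHG and by 0.41 in Mod. Coq8b, a paralogue of Coq8a, averaged 2.64 ± 0.0824 FPKM in 6-OHG, 3.58 ± 0.377 FPKM in Mod and 3.69 ± 0.176 FPKM in Con. It fell by 0.33 in 6-OHG against Mod, a call lost with equal sums, and by 0.37 against Con. The mitochondrial protease Lonp1 averaged 19.7 ± 2.21 FPKM in 6-OHG, 22.9 ± 1.22 FPKM in Mod and 15.4 ± 0.711 FPKM in Con, and Higd1a, a small protein of the inner membrane induced by low oxygen, averaged 26.8 ± 5.19 FPKM, 28.6 ± 2.13 FPKM and 17.6 ± 1.83 FPKM in the same order. Both were higher than Con in each exposed group, by 0.33 and 0.57 in 6-OHG and by 0.54 and 0.67 in Mod.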
